A study of Mus musculus with 8 samples.

Results

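The genes of transforming growth factor beta (TGF beta), bone morphogenetic protein (BMP) and activin signalling were followed in mouse heart as a set of 38 genes, chosen by symbol for their place in the pathway. They were 8 ligands, 4 latency proteins, 3 secreted ligand-binding proteins, 9 signalling receptors, 1 co-receptor, 6 signalling Smads, 2 inhibitory Smads, 2 nuclear co-repressors and 3 target genes. The set was chosen with earlier results of these data known. All 38 were found among the 30153 genes of the expression table. Whole-heart RNA had been sequenced after a poly(A) pull-down and a stranded library preparation, per the labels. The table held 8 libraries, 4 labelled Haplotype-II aged+western diet and 4 labelled Haplotype-II aged, here called western diet and control. All 8 were from C57/BL6 mice that the series describes as aged and as overexpressing the human angiotensin type 1 receptor, so every control carried that human transgene too. Sex, exact age, length of feeding, the promoter that drives the transgene and the number of founder lines were not given in the sources used here. Nor did the labels say whether each library came from a separate animal, so the p-values measure the spread between these libraries. The comparison asks how the western diet altered these hearts.

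TGF beta ligands are secreted bound to a latency peptide and tethered to the matrix by latent TGF beta binding proteins, and they signal only after release. A ligand of this superfamily brings a type II receptor kinase together with a type I receptor kinase, which phosphorylates receptor Smads. TGF betas and activins act mainly through Smad2 and Smad3, BMPs mainly through Smad1, Smad5 and Smad9, and both kinds of Smad enter the nucleus with Smad4. Follistatins, inhibitory Smads and the co-repressors Ski and Skil restrain the pathway at successive steps. In the heart TGF beta is best known for driving fibroblast activation and scar formation, while BMP signalling is best known there for valve and vessel development.

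No tested gene of the set passed the test for a diet difference. Of the 38 genes, 31 reached 1 TPM, the unit of length-scaled transcript abundance used throughout, in at least 4 of the 8 libraries and were tested by limma on log2(TPM + 1), with Benjamini-Hochberg adjustment over all 10969 tested genes. The other 7 were Bmp2, Inhba, Inhbb, Ltbp2, Fst, Acvr2b and Smad9, which get values without a test. At an adjusted p under 0.05, 0 of the 31 were called, against 33 of all 10969 genes, a share of 0.301%. At an unadjusted p under 0.05, 2 of the 31 were higher in western diet hearts (Id1 and Ski) and 0 were lower, while the shares over all tested genes were 9.20% higher and 2.51% lower. In 0 of the 31 did the 4 western diet values all lie above or all lie below the 4 control values, which they did in 4.85% and 1.75% of all tested genes. The mean log2 level was higher in western diet hearts for 25 of the 31 (80.6%), beside 66.4% of all tested genes, and the median log2 fold change was 0.16, beside 0.061 over all genes. Every fold change given is western diet minus control in log2(TPM + 1), a scale on which low genes show less than their true ratio.

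**Figure D1:**
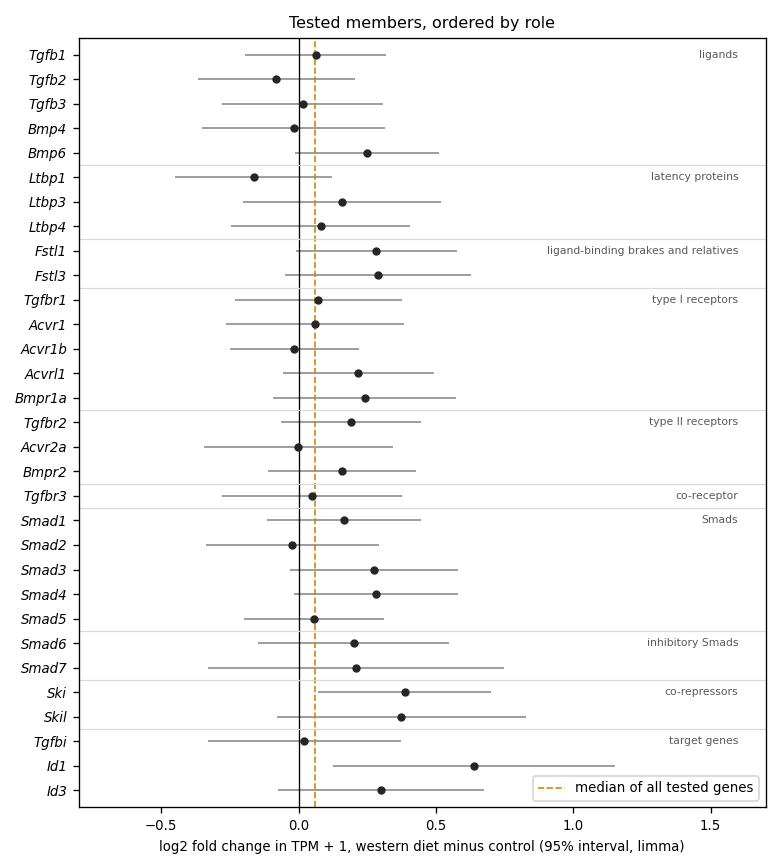
Log2 fold change in TPM + 1 (western diet minus control, horizontal axis) of the 31 tested genes, ordered by role, with 95% intervals from limma. The dashed line marks the median of all tested genes at 0.061, and most points lie between 0 and 0.4, with Id1 farthest right at 0.64.

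Some libraries stood apart from the rest of their group. Western diet replicates 1 to 3 held Y-linked Eif2s3y at 0 to 0.02 TPM, while western diet replicate 4 had 22.3 TPM and the controls 21.1 to 29.0 TPM, so among libraries with Y-linked transcripts the comparison is 1 western diet library against 4 controls. Atrial Myl7 reached 335 TPM in western diet replicate 2, and 184 and 1403 TPM in control replicates 1 and 3, against 1.10 to 2.87 TPM in the others. Adipocyte markers summed to 32.85 TPM in control replicate 3, against 0.155 to 3.04 TPM in the other libraries. Kidney tubule markers summed to 9.55 to 79.5 TPM in western diet hearts and 0.137 to 0.797 TPM in control hearts, with all 7 markers higher on average in western diet hearts, none of the 7 reaching 1 TPM in every library, and Umod, Miox and Slc34a1 listed at 0 in every control. Hemoglobin and the other red cell genes summed to 14258 TPM in western diet replicate 1, against 1975 to 5283 TPM in western diet replicates 2 to 4 and 2378 to 4456 TPM in controls. Mitochondrially encoded genes took 27.3% of the TPM in western diet replicate 1, against 34.6% to 39.3% in western diet replicates 2 to 4 and 34.6% to 36.5% in controls. With TPM rescaled without them, 26 of the 31 tested genes of the set were higher in western diet hearts and 0 passed. Cardiomyocyte markers, led by Myl2 and Tnnt2, summed to 34535 to 43880 TPM in western diet hearts and 43734 to 46178 TPM in control hearts. All 10 reached 1 TPM in every library, and 3 had the higher mean in western diet hearts and 7 the lower. Fibroblast markers summed to 777.5 to 1027 TPM in western diet hearts and 732.5 to 1040 TPM in control hearts. Of these 10 markers, 9 had the higher mean in western diet hearts and 1, Dcn, had the lower. Their part in the values of the set was not tested. Endothelial markers summed to 783 to 939.9 TPM in western diet hearts and 764 to 817.5 TPM in control hearts, and macrophage markers to 226 to 369 TPM in western diet hearts and 206 to 253.5 TPM in control hearts. TPM keeps no record of depth, so the depth behind each value is unknown.

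The table gives levels of whole genes in bulk tissue, in which fewer cells of a type and less RNA per cell cannot be told apart. Levels within the set varied widely. Its most abundant gene, Ltbp4, averaged 95.3 ± 18.0 TPM in western diet hearts and 89.8 ± 14.6 TPM in control hearts (SD, n = 4 each), while Fst was listed at 0 in 6 of the 8 libraries. The 4 genes after Ltbp4 by mean level were Id3, Id1, Fstl1 and Bmpr1a. Ltbp4 ranked 644 among the 10969 tested genes by mean TPM. TPM divides by transcript length, so these levels can be compared between genes.

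**Figure D2:**
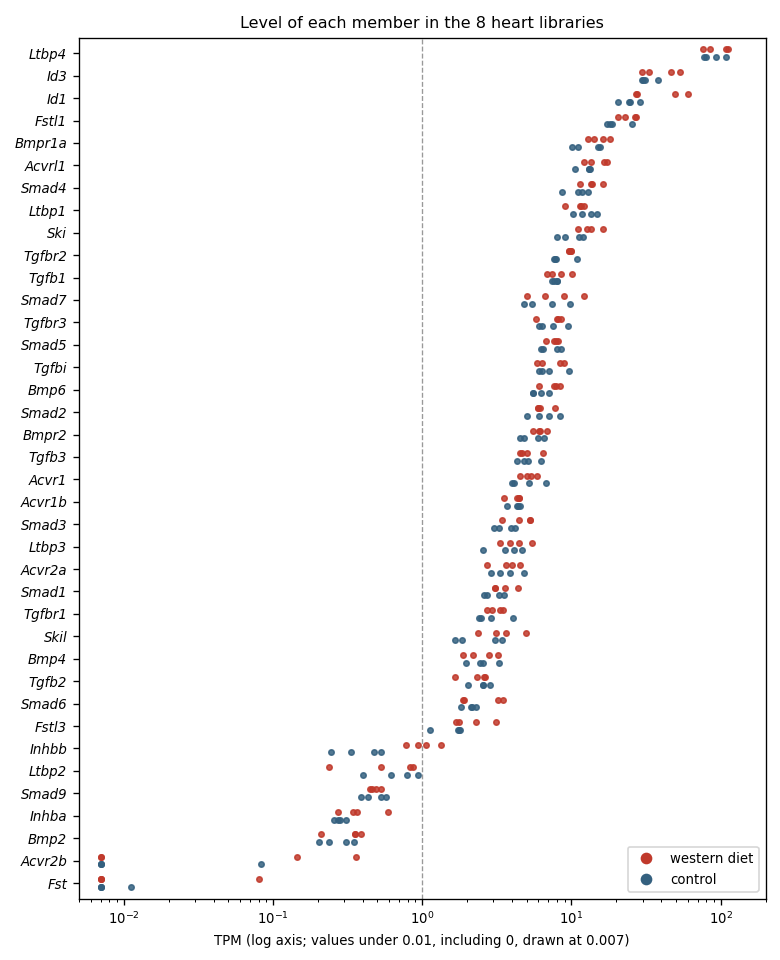
TPM (log axis) of all 38 genes in each of the 4 western diet and 4 control libraries, 1 point a library, ordered by mean level. The dashed line is at 1 TPM, and the western diet and control points overlap for every gene except Inhbb, whose 4 western diet points lie right of its 4 control points.

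Among the ligands, Inhbb stood apart from the rest. It encodes the inhibin beta B subunit, which pairs with itself to form activin B. The gene (ENSMUSG00000037035 in the files, chr1:119415465-119422248, minus strand, GRCm38) had 1.07, 1.33, 0.783 and 0.941 TPM in western diet replicates 1 to 4 and 0.334, 0.244, 0.532 and 0.476 TPM in control replicates 1 to 4. All 4 western diet libraries lay above all 4 controls, and the groups averaged 1.03 ± 0.233 TPM in western diet hearts and 0.397 ± 0.131 TPM in control hearts (SD, n = 4 each), a ratio of 2.60. The gene reached 1 TPM in 2 western diet libraries and in 0 controls, so it was outside the filter on low values and was not tested there. With no filter, limma gave a log2 fold change of 0.54 with a standard error of 0.10 and an adjusted p of 0.194, when 5 of 21108 genes (0.0237%) passed the adjusted threshold. It therefore did not pass there either, at an unadjusted limma p of 0.000855. The log2 fold change kept between 0.47 and 0.60 on leaving out any single library, and was 0.48 for western diet replicate 4 against the 4 controls, the comparison in which every library held Y-linked transcripts. The summed kidney tubule markers were higher in the same 4 libraries than in any control. They summed to 11.1, 9.55, 14.6 and 79.5 TPM in western diet replicates 1 to 4. Their part in the Inhbb values was not tested.

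The promoter of Inhbb is printed because this gene was the only one of the set whose groups separated. Among all tested genes, the western diet values all lay above the controls in 4.85%. No such share is given for genes under the filter, where Inhbb lies, so its separation is not set against a background. Beside it stand the promoters of Smad6, an inhibitor that BMP signalling induces, and of Id3, a BMP target gene. These are RefSeq promoters on GRCm38.p6, each from 250 bases before to 50 bases after the start site of the entry. They are read 5′ to 3′ on the gene's own strand. For Id3 the window lies inside the gene as placed by GENCODE release M21, which begins at chr4:136143497. Inhbb lies at chr1:119422199-119422498, minus strand, Smad6 at chr9:64022010-64022309, minus strand, and Id3 at chr4:136143572-136143871, plus strand. Capitals mark matches on either strand to GTCTAGAC, the palindromic Smad-binding element, to GGCGCC, a palindrome found in BMP-responsive GC-rich elements, or to CAGAC, the core of the Smad3-binding CAGA box.
Inhbb: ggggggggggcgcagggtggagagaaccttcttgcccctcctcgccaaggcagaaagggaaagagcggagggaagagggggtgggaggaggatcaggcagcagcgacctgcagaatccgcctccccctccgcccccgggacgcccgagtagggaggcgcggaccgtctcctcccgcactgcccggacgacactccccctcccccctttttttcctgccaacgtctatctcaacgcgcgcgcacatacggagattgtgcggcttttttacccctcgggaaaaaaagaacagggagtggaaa
Smad6: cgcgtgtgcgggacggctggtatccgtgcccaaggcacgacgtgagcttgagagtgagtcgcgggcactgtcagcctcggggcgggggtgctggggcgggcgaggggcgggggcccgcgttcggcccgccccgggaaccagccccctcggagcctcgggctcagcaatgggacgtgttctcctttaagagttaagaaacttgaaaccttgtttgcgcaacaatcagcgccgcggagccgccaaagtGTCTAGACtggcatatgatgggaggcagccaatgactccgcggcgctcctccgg
Id3: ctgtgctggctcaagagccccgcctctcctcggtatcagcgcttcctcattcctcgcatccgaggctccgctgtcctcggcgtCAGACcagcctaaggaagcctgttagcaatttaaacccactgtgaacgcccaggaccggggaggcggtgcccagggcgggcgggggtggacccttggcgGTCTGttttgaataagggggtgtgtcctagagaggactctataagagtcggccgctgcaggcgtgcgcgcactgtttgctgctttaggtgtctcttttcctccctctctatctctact
None of these letters occurred in the Inhbb window. The Smad6 window held 1 GTCTAGAC, beginning 4 bases before the start of the gene, and the Id3 window held 2 matches to CAGAC. No match to one of the motifs overlapped a match to another in these windows. Promoters were matched for 28 of the 38 genes, 34 promoters in all. GTCTAGAC was in 1 of the 34 (2.94%), against 0.213% of all 32851 mouse promoters of this length. GGCGCC was in 11 (32.4%), against 11.9%, and these belonged to 9 genes: Acvr1b, Bmpr1a, Bmpr2, Ltbp4, Ski, Smad5, Smad9, Tgfbi and Tgfbr1. CAGAC was in 14 (41.2%), against 49.6%. A match describes letters in the window and was not set against any measure of factor binding.

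**Figure D3:**
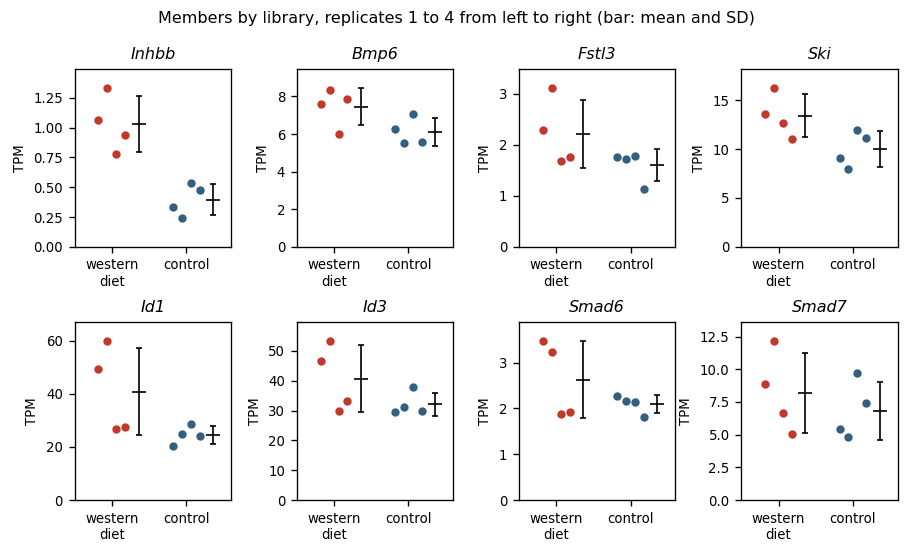
TPM of 8 genes of the set in each library, with western diet left of control in each panel, 1 point a library, and the mean and SD as a bar beside the points. Inhbb is the panel with no overlap, and in Id1, Id3 and Smad6 western diet replicates 1 and 2 lie above all other points while replicates 3 and 4 lie among the controls.

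No TGF beta ligand passed the test. Tgfb1, the isoform most tied to cardiac fibrosis, had 8.55, 10.1, 6.89 and 7.38 TPM in western diet hearts and 7.63, 7.39, 8.06 and 7.98 TPM in control hearts. The western diet values spread wider than the controls and took in their whole range (log2 fold change 0.063, 95% interval -0.19 to 0.32, limma adjusted p = 0.884). Tgfb2 had 1.67, 2.60, 2.65 and 2.34 TPM in western diet hearts and 2.84, 2.03, 2.56 and 2.55 TPM in control hearts, with western diet replicate 1 lowest and the other values intermingled (log2 fold change -0.082, adjusted p = 0.857). Tgfb3 had 4.52, 6.48, 5.07 and 4.64 TPM in western diet hearts and 5.08, 4.32, 6.24 and 4.80 TPM in control hearts, where western diet replicate 2 and control replicate 3 were the high libraries (log2 fold change 0.014, adjusted p = 0.980). Tgfb1 made up 52.3% ± 4.48 of the TPM of the 3 isoforms in western diet hearts and 50.7% ± 2.73 in control hearts (SD, n = 4 each). Tgfb3 lies opposite Ttll5, a gene on the other strand that was also tested. The strand setting of the quantification was not given in the sources used here, so reads of the pair cannot be told apart with certainty.

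Of the 3 BMP ligands of the set, Bmp6 was the most abundant. It is best known for inducing the iron hormone hepcidin in the liver. It had 7.61, 8.34, 6.03 and 7.85 TPM in western diet hearts and 6.28, 5.54, 7.06 and 5.57 TPM in control hearts, averaging 7.46 ± 1.00 TPM in western diet hearts and 6.11 ± 0.720 TPM in control hearts (SD, n = 4 each). Western diet replicates 1, 2 and 4 lay above every control and western diet replicate 3 lay inside the control range (log2 fold change 0.25, 95% interval -0.015 to 0.51, limma adjusted p = 0.453). Bmp6 overlaps Txndc5 on the opposite strand, which was expressed higher than Bmp6, with a mean of 18.1 TPM over the 8 libraries. Bmp4, a ligand of early heart and vessel patterning, had 3.23, 2.79, 2.18 and 1.87 TPM in western diet hearts and 3.28, 2.43, 2.55 and 1.96 TPM in control hearts, with full overlap (log2 fold change -0.018, adjusted p = 0.977). Bmp2, which shares receptors with Bmp4, was at 0.211 to 0.387 TPM in western diet hearts and 0.204 to 0.349 TPM in control hearts, and was not tested. Inhba, the activin A subunit, was also low, with 0.273, 0.592, 0.368 and 0.344 TPM in western diet hearts and 0.271, 0.254, 0.308 and 0.281 TPM in control hearts. Western diet replicates 2, 3 and 4 were above every control for Inhba, but replicate 1 was inside the control range. Inhbb made up 72.5% ± 5.24 of the TPM of the 2 activin subunits in western diet hearts (range 68.0% to 79.7%) and 57.6% ± 6.84 in control hearts (range 49.0% to 63.3%; SD, n = 4 each). These shares did not overlap and were not tested, and they rest on values near or under 1 TPM.

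Of the latency proteins, the 3 tested did not pass. Ltbp4 is a latent TGF beta binding protein that also guides elastic fibre assembly. It had 109, 112, 75.7 and 84.4 TPM in western diet hearts and 93.5, 79.8, 109 and 77.0 TPM in control hearts, with western diet replicates 1 and 2 and control replicate 3 high and western diet replicate 3 lowest (log2 fold change 0.080, 95% interval -0.24 to 0.40, limma adjusted p = 0.883). Ltbp1, the classical carrier of latent TGF beta, had 12.2, 11.5, 11.7 and 8.98 TPM in western diet hearts and 11.8, 10.2, 14.8 and 13.5 TPM in control hearts. Control replicates 3 and 4 were the high libraries for Ltbp1, and western diet replicate 4 was the lowest (log2 fold change -0.16, 95% interval -0.45 to 0.12, limma adjusted p = 0.676). Ltbp3 had 4.48, 5.41, 3.31 and 3.85 TPM in western diet hearts and 4.14, 2.57, 4.64 and 3.58 TPM in control hearts, overlapping fully (log2 fold change 0.16, adjusted p = 0.763). Ltbp2, which binds fibrillin but not latent TGF beta, had 0.237, 0.822, 0.532 and 0.873 TPM in western diet hearts and 0.939, 0.620, 0.791 and 0.402 TPM in control hearts and was not tested. Ltbp4 held 85.5% ± 1.68 of the TPM of the 4 genes in western diet hearts and 84.0% ± 1.77 in control hearts (SD, n = 4 each).

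Follistatin itself was nearly absent while its relatives were expressed. Fst, which binds and neutralises activins, was listed at 0 in 3 western diet and 3 control libraries, with 0.0801 TPM in western diet replicate 3 and 0.0111 TPM in control replicate 2. Fstl3, a follistatin-like antagonist of activins and myostatin, had 2.30, 3.12, 1.68 and 1.75 TPM in western diet hearts and 1.76, 1.73, 1.78 and 1.14 TPM in control hearts. For Fstl3, western diet replicates 1 and 2 were high, the other western diet libraries sat with the controls, and control replicate 4 was low (log2 fold change 0.29, 95% interval -0.049 to 0.63, limma adjusted p = 0.497). Fstl1, a secreted relative that is a known cardiokine, had 20.4, 26.8, 27.1 and 23.0 TPM in western diet hearts and 18.8, 17.3, 25.4 and 18.2 TPM in control hearts. Control replicate 3 lay within the western diet range, whereas the other controls lay below every western diet library (log2 fold change 0.28, 95% interval -0.0097 to 0.58, limma adjusted p = 0.442).

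None of the 5 type I receptors passed the test. Tgfbr1, the type I kinase for TGF beta, had 3.33, 3.48, 2.96 and 2.73 TPM in western diet hearts and 2.49, 2.41, 4.04 and 2.89 TPM in control hearts, with control replicate 3 the highest of all (log2 fold change 0.072, adjusted p = 0.887). Acvr1, a BMP receptor also called ALK2, had 5.02, 5.89, 5.36 and 4.54 TPM in western diet hearts and 4.14, 3.98, 6.78 and 5.21 TPM in control hearts, again highest in control replicate 3 (log2 fold change 0.060, adjusted p = 0.915). Acvr1b, the activin type I receptor, had 4.34, 4.43, 4.43 and 3.50 TPM in western diet hearts and 4.36, 3.71, 4.50 and 4.33 TPM in control hearts, and each group held 1 library below the other values (log2 fold change -0.016, adjusted p = 0.972). Acvrl1, the endothelial receptor ALK1 for BMP9 and BMP10, had 17.3, 16.4, 13.6 and 12.2 TPM in western diet hearts and 13.2, 10.6, 13.2 and 13.3 TPM in control hearts. Western diet replicates 1 to 3 were above every control, while western diet replicate 4 was below all controls but replicate 2 (log2 fold change 0.22, 95% interval -0.057 to 0.49, limma adjusted p = 0.538). Endothelial markers had the higher mean in western diet hearts for 7 of 10 genes. They summed to 939.9 TPM in western diet replicate 1, the library with the most Acvrl1. Fabp4 alone gave 615.8 TPM of this sum. In that library Fabp4, Pecam1, Tek and Eng were at their highest of all libraries, and Kdr and Cdh5 at their lowest. The part of these markers in the Acvrl1 values was not tested. Bmpr1a, the main BMP type I receptor of cardiomyocytes, had 14.2, 16.2, 18.2 and 12.9 TPM in western diet hearts and 11.1, 10.1, 15.5 and 15.2 TPM in control hearts. The groups overlapped broadly for Bmpr1a, with control replicates 1 and 2 lowest (log2 fold change 0.24, 95% interval -0.093 to 0.57, limma adjusted p = 0.580).

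Among the type II receptors, Tgfbr2 was the one whose western diet values were tightest. This receptor binds TGF beta first and had 9.90, 9.64, 9.98 and 9.57 TPM in western diet hearts, against 7.73, 7.85, 10.9 and 7.63 TPM in control hearts. The means were 9.77 ± 0.199 TPM in western diet hearts and 8.53 ± 1.59 TPM in control hearts (SD, n = 4 each). Control replicate 3 stood above every western diet library and the other 3 controls stood below them all (log2 fold change 0.19, 95% interval -0.065 to 0.45, limma adjusted p = 0.567). Bmpr2, the BMP type II receptor mutated in heritable pulmonary hypertension in humans, had 6.06, 6.82, 6.12 and 5.53 TPM in western diet hearts and 4.79, 4.50, 6.51 and 5.93 TPM in control hearts, overlapping (log2 fold change 0.16, adjusted p = 0.664). Acvr2a, an activin type II receptor, had 2.70, 3.62, 4.51 and 3.97 TPM in western diet hearts and 3.30, 2.88, 4.80 and 3.85 TPM in control hearts, with a fold change near 0 (log2 fold change -0.00089, adjusted p = 0.999), and it lies opposite Orc4. Its relative Acvr2b was listed at 0 in 2 western diet and 3 control libraries, with 0.361 and 0.145 TPM in western diet replicates 1 and 4 and 0.0837 TPM in control replicate 4. Tgfbr3, the co-receptor betaglycan, had 8.12, 8.02, 8.46 and 5.82 TPM in western diet hearts and 6.07, 6.36, 9.48 and 7.48 TPM in control hearts, and the ranges of the groups overlapped (log2 fold change 0.049, 95% interval -0.28 to 0.38, limma adjusted p = 0.934).

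The Smads of both branches gave no diet call. Smad3, the receptor Smad most tied to matrix gene induction, had 4.43, 5.27, 5.29 and 3.45 TPM in western diet hearts and 3.27, 3.04, 3.96 and 4.19 TPM in control hearts. For Smad3, western diet replicates 1 to 3 were above every control, but western diet replicate 4 lay inside the control range (log2 fold change 0.28, 95% interval -0.030 to 0.58, limma adjusted p = 0.477). Smad2, its partner, had 5.96, 5.99, 7.71 and 6.12 TPM in western diet hearts and 6.06, 5.03, 8.39 and 7.05 TPM in control hearts, with full overlap (log2 fold change -0.023, adjusted p = 0.970). Smad2 made up 58.5% ± 4.47 of the TPM of the pair in western diet hearts and 64.5% ± 2.58 in control hearts (SD, n = 4 each). Smad4, shared by both branches, had 13.7, 16.2, 13.6 and 11.4 TPM in western diet hearts and 11.8, 8.61, 13 and 11.1 TPM in control hearts, with western diet replicates 1 to 3 above all controls and western diet replicate 4 inside the control range (log2 fold change 0.28, 95% interval -0.016 to 0.58, limma adjusted p = 0.453). Of the BMP Smads, Smad1 had 3.60, 4.36, 3.09 and 3.06 TPM in western diet hearts and 2.59, 2.73, 3.27 and 3.54 TPM in control hearts (log2 fold change 0.16, adjusted p = 0.664), with the groups overlapping. Smad5 had 7.61, 8.16, 7.84 and 6.70 TPM in western diet hearts and 6.45, 6.28, 8.45 and 8.02 TPM in control hearts, with control replicate 3 the highest (log2 fold change 0.055, adjusted p = 0.899). Smad9 averaged 0.482 ± 0.0383 TPM in western diet hearts and 0.482 ± 0.0839 TPM in control hearts (SD, n = 4 each), too low for the test.

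Neither inhibitory Smad passed the test. Smad7, an inhibitor that TGF beta induces and that blocks its receptors, had 8.88, 12.2, 6.66 and 5.04 TPM in western diet hearts and 5.40, 4.82, 9.70 and 7.43 TPM in control hearts. Both groups covered a wide range, with western diet replicate 2 and control replicate 3 high (log2 fold change 0.21, 95% interval -0.33 to 0.75, limma adjusted p = 0.789). Smad6, which blocks the BMP branch and whose promoter is printed above, had 3.47, 3.24, 1.88 and 1.92 TPM in western diet hearts and 2.28, 2.15, 2.14 and 1.82 TPM in control hearts. Every control lay below western diet replicates 1 and 2, while western diet replicates 3 and 4 were at the low end of the control range (log2 fold change 0.20, 95% interval -0.15 to 0.55, limma adjusted p = 0.671). The co-repressors, which bind Smad4 complexes and silence their targets, had larger fold changes without passing. Ski (chromosome 4) had 13.6, 16.3, 12.7 and 11.0 TPM in western diet hearts and 9.04, 8.01, 11.9 and 11.2 TPM in control hearts, averaging 13.4 ± 2.19 TPM in western diet hearts and 10.0 ± 1.82 TPM in control hearts (SD, n = 4 each). Western diet replicates 1 to 3 were above every control, and replicate 4 was below control replicates 3 and 4 (log2 fold change 0.39, 95% interval 0.072 to 0.70, limma adjusted p = 0.328). Its unadjusted limma p was 0.0206. Skil, the related co-repressor SnoN, had 3.63, 4.97, 3.10 and 2.37 TPM in western diet hearts and 1.83, 1.66, 3.40 and 3.09 TPM in control hearts. The groups overlapped, with control replicates 1 and 2 lowest (log2 fold change 0.37, 95% interval -0.080 to 0.83, limma adjusted p = 0.519). For western diet replicate 4 against the 4 controls, all with Y-linked transcripts, the log2 fold change was 0.14 for Ski and -0.020 for Skil.

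The BMP target genes Id1 and Id3 were highest in the same 2 western diet libraries and did not pass the test. Both encode inhibitors of basic helix-loop-helix factors that BMP Smads induce directly. Id1 (chromosome 2) had 49.2, 60.0, 26.9 and 27.5 TPM in western diet hearts and 20.5, 24.8, 28.8 and 24.2 TPM in control hearts. All other libraries were well below western diet replicates 1 and 2, and western diet replicates 3 and 4 lay inside the control range. The groups averaged 40.9 ± 16.4 TPM in western diet hearts and 24.6 ± 3.40 TPM in control hearts (SD, n = 4 each), a ratio of 1.67 (log2 fold change 0.64, 95% interval 0.12 to 1.15, limma adjusted p = 0.321), with an unadjusted limma p of 0.0195. For western diet replicate 4 against the 4 controls, the comparison with Y-linked transcripts in every library, the log2 fold change of Id1 was 0.17. Red cell genes, all 6 with the higher mean in western diet hearts, were also highest in western diet replicates 1 and 2. They summed to 14258 and 5283 TPM there, against 1975 to 4456 TPM in the other libraries. Western diet replicates 1 and 2 were the 2 highest libraries for 24.0% of all tested genes. The part of red cell genes in the Id1 values was not tested. Id3 had 46.7, 53.3, 29.7 and 33.3 TPM in western diet hearts and 29.5, 31.2, 37.9 and 30.0 TPM in control hearts, with the same 2 western diet libraries high and replicates 3 and 4 within the controls (log2 fold change 0.30, 95% interval -0.073 to 0.68, limma adjusted p = 0.531). Id1 made up 49.3% ± 3.50 of the TPM of the pair in western diet hearts (range 45.2% to 52.9%) and 43.3% ± 1.64 in control hearts (range 41.0% to 44.7%; SD, n = 4 each). These shares did not overlap and were not tested. Of the within-family shares computed, only those of Inhbb and Id1 separated the groups, and no background rate is given for such shares. Tgfbi, a matrix protein named for its induction by TGF beta, had 8.36, 8.85, 6.37 and 5.91 TPM in western diet hearts and 6.07, 6.32, 9.69 and 7.03 TPM in control hearts, with control replicate 3 highest (log2 fold change 0.020, adjusted p = 0.975).

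Across the set, levels moved together by library. After subtracting each gene's mean over the 8 libraries, the median deviation of the 31 tested genes was 0.11, 0.28, 0.00050 and -0.11 in western diet replicates 1 to 4 and -0.17, -0.23, 0.16 and -0.025 in control replicates 1 to 4, on the log2 scale. Over all tested genes the same medians were 0.089, 0.13, 0.017 and -0.099 in western diet and -0.058, -0.15, 0.066 and 0.011 in control libraries. Western diet replicate 2 was thus high and control replicate 2 low in the set and over all genes, with the larger deviation in the set. In control replicate 2, 0 of the 31 genes were above their own mean, against 28 in western diet replicate 2, 26 in control replicate 3 and 4 in western diet replicate 4. In 11 of the 31 (35.5%) western diet replicates 1 and 2 were the 2 highest libraries, beside 24.0% of all tested genes: Tgfb1, Ltbp4, Fstl3, Acvrl1, Smad1, Smad4, Smad6, Ski, Skil, Id1 and Id3. Control replicate 3 was the highest library for 10 (32.3%), beside 18.8%, and control replicate 2 was the lowest control for 21 (67.7%), beside 57.3%. These 3 counts were chosen after the values had been seen.

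**Figure D4:**
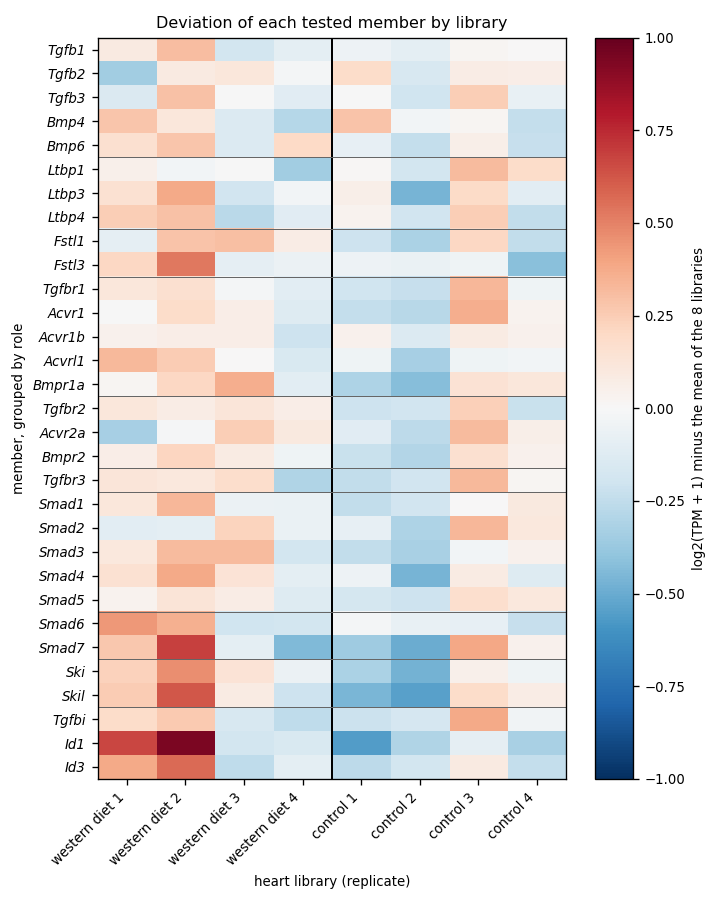
Deviation of each of the 31 tested genes from its mean over the 8 libraries, on the log2(TPM + 1) scale (red above, blue below), with western diet replicates 1 to 4 left of control replicates 1 to 4. Most of a column shares a colour, red in western diet replicates 1 and 2 and control replicate 3, blue in control replicates 1 and 2 and western diet replicate 4, which shows the set moving by library.

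The share of genes with a higher mean in western diet hearts did not hold among libraries with Y-linked transcripts. In that comparison, 1 western diet library against 4 controls, 13 of the 31 genes were higher and their median log2 fold change was -0.045, beside -0.069 over all tested genes, and 17 of the 38 genes changed sign. Among the genes with the larger fold changes over all libraries, the log2 fold change there was 0.32 for Bmp6, 0.21 for Fstl1, 0.089 for Fstl3, 0.056 for Id3, 0.041 for Smad4 and -0.045 for Smad3. A fit of all 8 libraries with a term for Y-linked transcripts gives the same fold changes by construction, because only western diet libraries lack them, and is no separate evidence. Since 3 of the 4 western diet libraries lack these transcripts, diet and the presence of Y-linked transcripts cannot be told apart for those 3. Without the 3 libraries with atrial transcripts, 28 of the 31 genes were higher, with a median of 0.16, beside 0.065 over all tested genes. That left western diet replicates 1, 3 and 4 against control replicates 2 and 4. The count at an unadjusted p under 0.05, 2 over all libraries, was 0 without western diet replicate 2 or control replicate 1, 1 without control replicate 2, 5 without western diet replicate 3, 6 without western diet replicate 4 and 7 without control replicate 3. No shares over all tested genes are given beside these counts, so they are not read as a result about the set. The median log2 fold change of the set was 0.058 without western diet replicate 2, beside 0.028 over all tested genes. Without control replicate 3 it was 0.21, beside 0.096 over all tested genes.

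Other genes of the pathway were read from a list of 95 further ligands, receptors, proteins that act on latent TGF beta, antagonists, regulators and targets. This list too was chosen with earlier results of these data known, so its counts are not read as a result about the list. Of the 51 that could be tested, 0 passed an adjusted p under 0.05, 12 were higher and 1 (Bmper, a BMP-binding protein) was lower at an unadjusted p under 0.05. Over all tested genes 9.20% were higher and 2.51% lower by that rule. The mean was higher in western diet hearts for 38 of the 51, beside 66.4% of all tested genes, and the median log2 fold change was 0.10, beside 0.061. In 6 of the 51 (Thbs1, Emilin1, Furin, Bgn, Pmepa1 and Cdkn1a) every western diet library was above every control, beside 4.85% of all tested genes. Pmepa1, a TGF beta target that sequesters receptor Smads, had 9.50, 13.6, 8.60 and 9.63 TPM in western diet hearts and 6.17, 4.70, 6.44 and 6.38 TPM in control hearts. Its groups did not overlap (log2 fold change 0.70, 95% interval 0.38 to 1.02, limma adjusted p = 0.0749). It passed an adjusted p under 0.05 with quantile normalization, at 0.0496, and with library weights, at 0.0379, and it would pass a threshold of 0.10 as fitted. Its adjusted p ranged from 0.0379 to 0.470 across the alternatives. Cdkn1a, the cell cycle inhibitor p21 that TGF beta and other stress signals induce, had 56.7, 36.5, 12.4 and 12.5 TPM in western diet hearts and 6.75, 5.76, 5.63 and 8.12 TPM in control hearts. All 4 western diet libraries were above the controls, western diet replicates 1 and 2 by far (log2 fold change 1.74, 95% interval 0.85 to 2.63, limma adjusted p = 0.116). It passed an adjusted p under 0.05 with library weights, at 0.0353, and its highest adjusted p was 0.773. For western diet replicate 4 against the 4 controls, its log2 fold change was 0.85.

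Of the proteins that act on the latent form of TGF beta, 9 were tested and 0 passed. The mean was higher in western diet hearts for 5 of the 9, and their median log2 fold change was 0.042, beside 0.061 over all tested genes. Itgav, an integrin subunit that binds latent TGF beta, had the lowest log2 fold change of the 9, at -0.39, and was named after its value had been seen. Western diet values were all above the controls in 3 of the 9, Thbs1, Emilin1 and Furin, beside 4.85% of all tested genes. Because the list was chosen with earlier results of these data known, this count is not read as a result about the list. Thbs1, a matrix protein that releases TGF beta from its latency peptide, had 2.56, 4.77, 2.67 and 4.02 TPM in western diet hearts and 1.51, 0.898, 2.41 and 1.66 TPM in control hearts, with control replicate 2 lowest (log2 fold change 0.78, 95% interval 0.34 to 1.22, limma adjusted p = 0.146). Emilin1, an elastin-associated protein that restrains processing of the TGF beta precursor, had 9.09, 10.0, 6.43 and 7.18 TPM in western diet hearts and 5.46, 4.20, 6.14 and 4.96 TPM in control hearts, with western diet replicates 1 and 2 highest (log2 fold change 0.56, 95% interval 0.24 to 0.88, limma adjusted p = 0.163). Furin, the protease that cuts the precursor, had 28.5, 33.1, 23.6 and 23.1 TPM in western diet hearts and 20.5, 15.1, 21.2 and 19.9 TPM in control hearts, with western diet replicate 2 highest (log2 fold change 0.48, 95% interval 0.17 to 0.78, limma adjusted p = 0.203). For western diet replicate 4 against the 4 controls, the log2 fold change was 0.27 for Furin, 0.41 for Emilin1 and 0.97 for Thbs1. Macrophage markers, of which all 10 had the higher mean in western diet hearts and 9 reached 1 TPM in every library, summed highest in western diet replicate 1 at 369 TPM, and their part in these values was not tested.

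**Figure D5:**
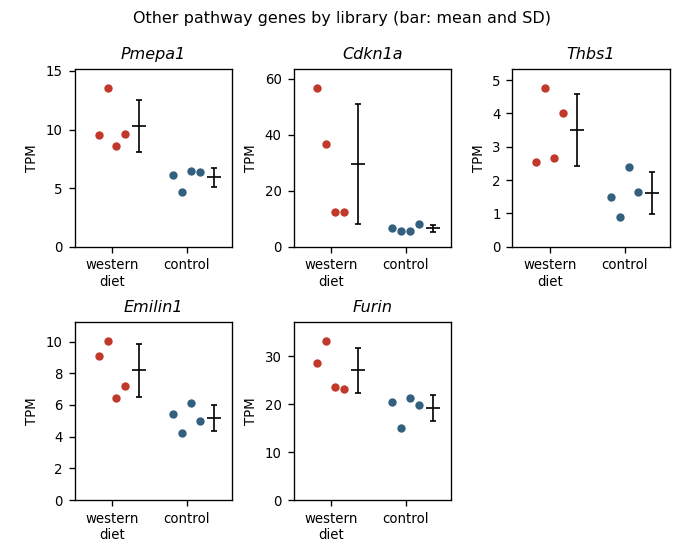
TPM of Pmepa1, Cdkn1a, Thbs1, Emilin1 and Furin in each library, with western diet left of control, 1 point a library, and the mean and SD as a bar. In all 5 panels every western diet point lies above every control point.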

How the data were processed

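Libraries were made with a stranded poly(A) preparation, per the labels' protocols. The deposited table gave TPM, length-scaled transcript abundance, per Ensembl gene, as the authors made it. The tools kallisto and DESeq2 and the GRCm38 build are named, with no roles, per the submitters' processing notes. Versions, annotation and strand setting were not given in the sources used here. The TPM of a library summed to between 941318 and 953448, and 10620 to 11175 genes reached 1 TPM. Genes were named with GENCODE release M21, and 342 of 30153 rows stayed unnamed. Columns were assigned to samples by title, and replicates were numbered in accession order, which pairs no samples.

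The 38 genes and the other lists were chosen with earlier results of these data known. Tests covered the genes that reached 1 TPM in 4 or more of the 8 libraries and were made with limma 3.58.1 (R 4.3.3) on log2(TPM + 1), western diet minus control, intensity trend, two-sided, with Benjamini-Hochberg adjustment at 0.05. The script was tested on simulated data. Tables were computed in Python 3.11.15 with pandas 2.3.3, and figures drawn with matplotlib 3.10.9. All 38 genes were named by rule, and of the other pathway genes the 6 with the smallest unadjusted p, of which 1 is not reported here. The 22 alternatives changed pseudocount, filter, scaling, variance prior, library weights, threshold and libraries.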

Additional observations from a re-analysis of the deposited data

Results flagged for a closer look

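Values far from the rest of their group were looked for in the 38 genes and 6 further pathway genes, 88 groups of 4 libraries in all. In 10 groups 1 library stood apart by the Dixon criterion at the 95% level, and chance alone marks about 1 in 20 groups. In western diet hearts, Acvr1b was 3.505 TPM in replicate 4 (others 4.34 to 4.43), Tgfbr3 was 5.819 TPM in replicate 4 (others 8.02 to 8.46), and Smad2 was 7.714 TPM in replicate 3 (others 5.96 to 6.12). Fst was 0.08012 TPM in western diet replicate 3, with the others listed at 0. In control hearts, Tgfbr2 was 10.91 TPM in replicate 3 (others 7.63 to 7.85), and Fstl3 was 1.136 TPM in replicate 4 (others 1.73 to 1.78). Control replicate 2 was low for Acvrl1, at 10.62 TPM (others 13.2 to 13.3), and for Pmepa1, at 4.704 TPM (others 6.17 to 6.44). Fst was 0.01114 TPM in control replicate 2 and Acvr2b was 0.08369 TPM in control replicate 4, with the other controls listed at 0 for each. Where the other values of a group are all 0, any value above 0 is marked by construction. That holds for Fst in both groups and Acvr2b in controls, so these marks cannot be set against chance.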

How the results depend on the processing

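No tested member passed the threshold under any of the 22 alternatives, which tested 31 members, or 20 with a mean of at least 5 TPM and 38 with no filter; the smallest adjusted p of a member was 0.0961, for Id1 with library weights. The number of genes called among all tested, 33, was 5 with no filter, 15 with a mean of at least 5 TPM, 61 with quantile normalization, 108 with library weights, 95 at an adjusted p under 0.10, 54 with a Y-linked term, 76 in libraries with Y-linked transcripts, 5 without libraries with atrial transcripts, and 8 to 95 on leaving out a library. The number of members at an unadjusted p under 0.05, 2, was 4 with median-of-ratios scaling, 9 with library weights, 1 with the Y-linked term, 0 in libraries with Y-linked transcripts, 1 without atrial libraries, and 0 to 7 on leaving out a library. The number of members higher in western diet hearts, 25, was 13 and their median log2 fold change was -0.045 both with the Y-linked term and in libraries with Y-linked transcripts. The causes were not tested. On leaving out a library, 20 to 28 members were higher, with a median of 0.058 to 0.21. The same median over all tested genes was 0.023 to 0.11. For the member counts at an unadjusted p, no share over all tested genes is given. Median-of-ratios scaling and quantile normalization moved the median of all genes from 0.061 to -0.0066 and -0.010 and left 19 of 31 members higher under each. The 7 members under the filter were tested with no filter alone. In libraries with Y-linked transcripts the lone western diet library is assumed to vary like the controls. No paired analysis was possible because the replicate numbers were given in accession order. Depth is unknown for TPM, which limits most the genes near 1 TPM such as Inhbb.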

Other observations

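Bmp10, a BMP ligand known from atrial cardiomyocytes, was at 0.0667 to 0.225 TPM in western diet hearts, while in control hearts it reached 3.76 TPM in replicate 1 and 50.9 TPM in replicate 3, against 0.0293 and 0.0355 TPM in the other 2. Control replicates 1 and 3 also held atrial Myl7 above 100 TPM, as did western diet replicate 2, where Bmp10 was at 0.0931 TPM. Gdf15, a stress-induced member of the superfamily, had 1.19, 1.85, 0.445 and 1.77 TPM in western diet hearts and 0.517, 0.699, 0.416 and 0.561 TPM in control hearts, with western diet replicate 3 among the controls. Gdf10 had 0.204, 0.188, 0.241 and 0.247 TPM in western diet hearts and 0.528, 0.594, 0.506 and 0.419 TPM in control hearts, all western diet values below all controls. Neither Gdf15 nor Gdf10 reached the filter for testing, and these 3 genes were chosen after their values had been seen.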
